A study of Drosophila melanogaster with 4 samples.

Results

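Far intronic regions are places inside the introns of protein-coding genes, over 4000 bp from any annotated protein-coding transcription start site (TSS), where the transcription factor Chinmo was found on chromatin in whole *Drosophila melanogaster* embryos. Chromatin immunoprecipitation followed by sequencing had been done on transgenic embryos aged 6 to 24 h of the chinmo-GFP strain, in which Chinmo is fused to enhanced GFP, with an antibody that the sample description gives as anti-GFP. The 4 libraries are labelled biological replicates 1 to 4 of a single group, so no second genotype, age or treatment was compared. The flies are labelled as carrying an insertion that targets chinmo. How many copies of the chinmo locus they carry, what drives the fusion, and how many embryos were pooled are not stated in the labels. Summits from the 4 deposited thresholded lists were merged into a cluster when their windows, which reach 100 bp either way, overlapped, and clusters with a summit in 2 or more libraries were kept. The median summit was taken as the centre. Of 3491 such regions, 348 were far intronic, which is 9.97% (95% Clopper-Pearson interval 8.99% to 11.0%). Without replicate 2, the library with the longest list, 218 regions met the same rule. The rule used position and repeated calling only. The signal of a peak, its sequence and the identity of its gene played no part in it.

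Chinmo belongs to the BTB zinc finger family, whose members pair through a BTB domain and touch DNA through zinc fingers. It is known for setting temporal identity in neuronal lineages and for maintaining male identity in stem cells of the testis, and its level in neurons falls over development under control of RNA-binding proteins and ecdysone-dependent factors. Long introns of fly developmental genes commonly hold enhancers and alternative promoters, so a bound region there may lie far from any start site. In whole embryos a region bound in a small group of cells and a region bound weakly in many cells cannot be told apart.

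The strongest far intronic regions show what kind of DNA lies under these summits. Shown here, as the reference sequence reaching 100 bp either way from the centre, on the plus strand of Release 6 (dm6) from RefSeq, are 6 of the 7 highest-ranked regions called in all 4 libraries, taking at most 2 per gene. The region of CG6191, which ranked between those of CG5953 and Hr39, is described below by its values only. They lie at chr2L:1657140-1657340 in chinmo, chr3L:18759269-18759469 and chr3L:18789630-18789830 in ftz-f1 (regions 1 and 2), chr2L:12529631-12529831 in bun, chr2L:16526103-16526303 in CG5953 and chr2L:21250869-21251069 in Hr39. Each is inside an intron and in no annotated exon. Capitals mark matches to GAGAG, an element recognised by GAGA factor, and to the CA repeat CACACA, on either strand.
chinmo: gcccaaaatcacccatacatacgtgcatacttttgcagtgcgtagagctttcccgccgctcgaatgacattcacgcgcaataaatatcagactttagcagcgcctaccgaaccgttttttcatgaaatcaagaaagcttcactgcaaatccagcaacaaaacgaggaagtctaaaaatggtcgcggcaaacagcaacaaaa
ftz-f1 region 1: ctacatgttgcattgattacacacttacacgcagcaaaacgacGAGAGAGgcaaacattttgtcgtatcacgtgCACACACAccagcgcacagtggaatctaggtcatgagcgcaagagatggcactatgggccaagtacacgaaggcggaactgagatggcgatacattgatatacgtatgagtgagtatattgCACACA
bun: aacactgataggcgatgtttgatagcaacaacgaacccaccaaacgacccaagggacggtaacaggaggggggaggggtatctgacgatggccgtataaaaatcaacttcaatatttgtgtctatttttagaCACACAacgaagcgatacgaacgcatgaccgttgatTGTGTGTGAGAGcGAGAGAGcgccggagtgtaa
CG5953: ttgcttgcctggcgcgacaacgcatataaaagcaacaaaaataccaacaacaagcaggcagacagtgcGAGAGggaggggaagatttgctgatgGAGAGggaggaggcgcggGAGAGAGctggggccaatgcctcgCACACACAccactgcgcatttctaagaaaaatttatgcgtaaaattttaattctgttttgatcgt
Hr39: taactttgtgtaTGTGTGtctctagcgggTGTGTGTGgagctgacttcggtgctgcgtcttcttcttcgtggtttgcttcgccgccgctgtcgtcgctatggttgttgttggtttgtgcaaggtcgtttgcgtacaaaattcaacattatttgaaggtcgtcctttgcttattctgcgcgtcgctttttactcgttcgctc
ftz-f1 region 2: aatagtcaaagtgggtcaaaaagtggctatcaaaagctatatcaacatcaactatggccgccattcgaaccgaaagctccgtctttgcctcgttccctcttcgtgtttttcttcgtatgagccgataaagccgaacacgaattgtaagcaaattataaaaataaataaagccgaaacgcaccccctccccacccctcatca

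Among these windows the CG5953 region held 4 matches to GAGAG and 2 to the CA repeat, counting overlapping matches. The bun region held 3 and 3, and the first ftz-f1 region 2 and 3. The Hr39 region held 3 CA repeats and no GAGAG. The highest-ranked region of all, in chinmo, and the second ftz-f1 region held neither. GC content was between 43.8% and 48.8% in the 6 windows. These windows reach 100 bp either way, while the shares of regions given below use 50 bp either way. Within 50 bp the Hr39 region held no CA repeat, and the bun region and the first ftz-f1 region no GAGAG.

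Far intronic summits made up 11.6% of the peaks in replicate 1 (397 of 3435), 11.4% in replicate 2 (503 of 4415), 8.87% in replicate 3 (197 of 2222) and 8.43% in replicate 4 (256 of 3038). Replicates 1 and 2 therefore had the higher shares and the longer far intronic lists. The far intronic class covers 30.4 Mb, or 22.7% of the 6 chromosome arms, so its density was 11.5 regions per Mb. Promoters, within 1000 bp of a protein-coding TSS, held 87.4 regions per Mb. Introns between 1000 and 4000 bp from a TSS, called near intronic here, held 27.7, intergenic sequence 7.73 and exons 4.21. The density of far intronic regions ran from 14.5 per Mb on arm 3L and 14.4 on 2L through 11.0 on 2R to 9.55 on 3R and 9.42 on X. Chromosome 4 held 1 region.

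Far intronic regions gathered toward the nearer end of the distances that the rule allows. Their median distance to the nearest protein-coding TSS was 7573 bp (quartiles 5583 and 11979.8 bp, highest 78273 bp). Positions sampled every 2000 bp along the same intronic sequence, 15158 in all, had a median of 11894.5 bp. Between 4000 and 6000 bp from a TSS there were 19.6 regions per Mb of far intronic sequence, and between 6000 and 10000 bp 16.8. The density was 11.3 between 10000 and 20000 bp and 4.8 between 20000 and 50000 bp. Beyond 50000 bp lay 14.8% of the sequence and 2 regions, or 0.446 per Mb. How much of that sequence is repetitive, where reads align poorly, was not measured here.

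**Figure D1:**
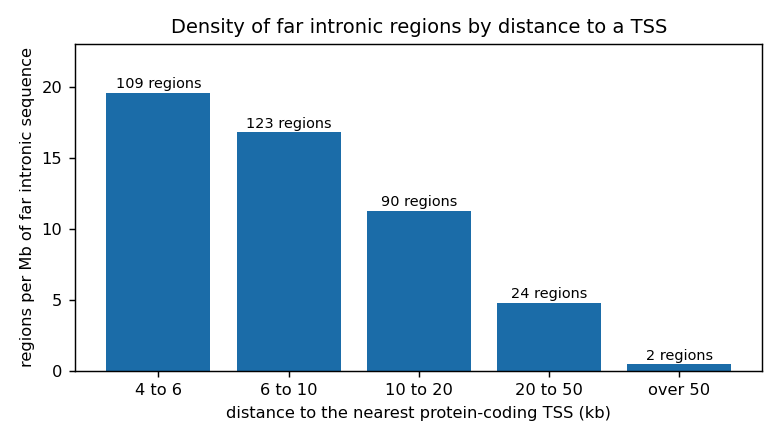
Density of the 348 far intronic regions (regions per Mb of far intronic sequence) in 5 classes of distance to the nearest protein-coding TSS (kb), with the number of regions above each bar. The density falls at each step, from 19.6 per Mb nearest the limit to 0.446 per Mb beyond 50 kb.

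Every centre lay in an annotated intron of its host gene, and 174 of 348 (50%, interval 44.6% to 55.4%) lay in the first intron of at least 1 transcript. Among the sampled positions of the same sequence 32.6% did. The nearest TSS belonged to the host gene for 68.7% of the regions, against 61.2% of the sampled positions. The centre was downstream of the nearest TSS for 69.3% of the regions and for 73.3% of the positions. The longest intron holding a region had a median length of 18745.5 bp, and for the sampled positions the median was 24346 bp. Within 500 bp of a TSS of an annotated non-coding gene lay 9 regions (2.59%, interval 1.19% to 4.85%), against 0.653% of the positions. The regions lay in more than 1 protein-coding gene in 13 cases.

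The limit of 4000 bp cut through a continuous set. Just inside it were regions in CG5151, at 4054 bp, and in gpp, at 4056 bp, the latter encoding the histone methyltransferase Grappa. Just outside were regions in Gdap2, at 3985 bp, and in tsh, at 3971 bp, where tsh encodes the zinc finger homeotic factor Teashirt. These 4 regions were called in 2 libraries each, with mean rank percentiles of 11.0, 49.7, 33.8 and 33.6.

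Far intronic regions varied in how many libraries called them. Of the 348, 158 were called in 2 libraries, 97 in 3 and 93 in all 4. The share called in all 4 was 26.7% (interval 22.1% to 31.7%), against 29.0% of near intronic regions (24.6% to 33.7%), 34.7% of promoter regions (32.8% to 36.7%) and 33.2% of intergenic regions (27.4% to 39.4%). For exonic regions it was 42.4% (33.6% to 51.6%). The far intronic interval overlaps much of that of near intronic regions and part of that of intergenic regions. It lies below those of promoter and exonic regions. Replicate 2 called 315 of the regions, replicate 1 called 287, replicate 4 called 213 and replicate 3, the library with the shortest list, called 164. A region that a library did not call was often in that library's longer ranked list. This held for 93.9% of those absent from replicate 2, 88.1% from replicate 4, 80.3% from replicate 1 and 76.1% from replicate 3, with a ranked summit within 100 bp of the centre. For promoter regions the shares were 79.5%, 86.0%, 87.2% and 73.7% for the same libraries in that order, so such ranked summits were common in both classes. The ranked lists held 27034 to 39725 peaks, against 2225 to 4415 in the thresholded lists. How high these summits stood in the ranked lists was not examined, so they need not be near misses. Of the regions, 310 (89.1%) also had a summit within 100 bp in the deposited conservative list of the whole series, against 87.3% of promoter regions.

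The agreement between libraries was also measured over single summits. In replicates 1 to 4, 72.0%, 62.2%, 83.8% and 83.2% of far intronic summits lay within 100 bp of a summit of another library, against 80.8%, 72.9%, 85.5% and 83.9% of promoter summits. The far intronic share was lower in 4 of 4 libraries, by a mean of −5.45 ± 4.99 percentage points (SD, n = 4; two-sided exact permutation test by sign flips, p = 0.13, adjusted over 9 tests 0.281). With 4 libraries 0.13 (rounded) is the smallest p that this test can give, so none of the 9 could pass 0.05. Against intergenic summits (69.6%, 66.5%, 80.9% and 81.0%) the mean difference was 0.819 ± 3.39 points, with 3 libraries higher and 1 lower (exact permutation p = 0.625, adjusted 0.703), and it was between 0.137 and 2.51 when the difference of 1 library was left out of the mean. Removing a library also as a partner for matching turned it negative without replicate 1 (−1.91), replicate 3 (−2.13) or replicate 4 (−0.531).

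Within each library's list, far intronic regions had a lower median rank than promoter regions, a difference that the 4 libraries were too few to call. A rank percentile is the percentage of the peaks in 1 library's list whose deposited signal value is no higher, so that 100 is the strongest peak. The median percentile of far intronic regions was 58.0, 58.7, 53.0 and 40.6 in replicates 1 to 4, and that of promoter regions 60.4, 64.3, 56.4 and 60.4. The difference was negative in 4 of 4 libraries, −2.40, −5.59, −3.39 and −19.8 points, with a mean of −7.80 ± 8.12 (SD, n = 4; exact permutation p = 0.13, adjusted 0.281). Replicate 4 stood lowest, and the mean of the other 3 differences was −3.80 points, or −4.72 when the regions were also formed anew from those 3 libraries. In the upper 50% of each list it was −0.928 points. Near intronic regions had medians of 57.2, 60.8, 53.0 and 49.8, a mean difference of −2.63 ± 4.54 points (exact permutation p = 0.5, adjusted 0.643). Over the other 3 libraries that difference was −0.440 without replicate 4 and −3.76 without replicate 1. With regions formed anew from 3 libraries it was −0.628 without replicate 4 and −0.208 without replicate 1, and it turned to 1.59 in the upper 50% of each list. Against intergenic regions the mean difference was −3.52 ± 4.22 points (exact permutation p = 0.25, adjusted 0.45), and it lay between −5.30 without replicate 1 and −1.86 without replicate 4 over the same regions. With regions formed anew it ran from −6.36 without replicate 2 to −0.411 without replicate 1. Median peak width was equal for far intronic and promoter summits in every library, 400, 430, 396 and 420 bp, which are also the widths most peaks of each list share.

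Over the 93 regions called in all 4 libraries, Spearman's rank correlation of the percentiles between pairs of libraries ran from 0.612 to 0.820, a description over regions of a single genome. The 4 summits of such a region spanned a median of 53 bp. The median of the mean percentile was 71.3 for regions called in 4 libraries, 46.3 for those in 3 and 38.2 for those in 2. Of the 348 regions, 19 had a mean percentile over 90, and 51 over 75.

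The strongest of all lay in chinmo itself, the gene whose product was precipitated. Its centre was 5982 bp downstream of the chinmo TSS, in an intron of 36281 bp. The peak ranked 3 of its list in replicates 1, 2 and 4 and 6 in replicate 3, with signal values of 318, 682, 466 and 527. Its percentiles were 99.94, 99.95, 99.78 and 99.93 (mean 99.90 ± 0.0846, SD, n = 4), so all 4 libraries placed it among the top 6 peaks anywhere. A second chinmo region, 41824 bp from the 5′ end of the gene, had percentiles of 93.6, 96.2, 95.3 and 94.3. The nearest TSS to it was that of cpb, at 11820 bp. Another, at 21063 bp from the 5′ end but 4474 bp from a chinmo TSS, spread from 14.7 in replicate 3 to 81.3 in replicate 2. The last, at 12105 bp from the 5′ end but 4484 bp from a chinmo TSS, was called in 3 libraries at 1.89, 53.7 and 2.25. The labels do not say whether reads from the inserted construct could add to these peaks, and their part in the values was not tested. Leaving out the 4 chinmo regions left 344.

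Nuclear receptors of the ecdysone cascade supplied several of the next regions. The gene ftz-f1 encodes an orphan nuclear receptor that works with Fushi tarazu in segmentation and makes tissues competent to answer ecdysone. Its first region, 41940 bp from the 5′ end but 5587 bp from the nearest TSS, had percentiles of 99.0, 99.5, 99.6 and 99.2 (mean 99.3 ± 0.278). Its second, 11579 bp from the 5′ end, had 98.8, 98.7, 95.8 and 97.2 (mean 97.6 ± 1.42). A further 2 regions of ftz-f1 would have ranked among the top 12 and are counted with the gene below. Hr39 encodes a nuclear receptor closely related to Ftz-f1, and its region had percentiles of 98.7, 99.6, 97.0 and 98.3 (mean 98.4 ± 1.08). Eip74EF encodes an ETS-domain factor induced early by ecdysone, and its region gave 97.3, 98.1, 89.4 and 94.7 (mean 94.9 ± 3.94). Replicate 3 was lowest for Hr39, for the second ftz-f1 region and for Eip74EF.

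Of the remaining top regions, that of bun, which encodes a TSC-22 family protein, had percentiles of 99.7, 99.8, 98.2 and 99.1. Those of CG5953 were 98.1, 99.0, 99.5 and 98.8, and those of CG6191 were 98.0, 99.2, 98.8 and 98.7. The region of mamo, which encodes another BTB zinc finger factor, lay 42760 bp from the nearest TSS and had percentiles of 96.5, 98.4, 98.3 and 96.3. Its 4 summits fell within 7 bp. Pits encodes a partner of the repressor Ttk69, and its region had 95.9, 97.6, 94.7 and 94.9. The spin region, in the gene of the lysosomal transporter Spinster, had 96.4, 97.0, 91.8 and 91.9. Every one of these 12 regions stayed above a percentile of 89 in every library.

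**Figure D2:**
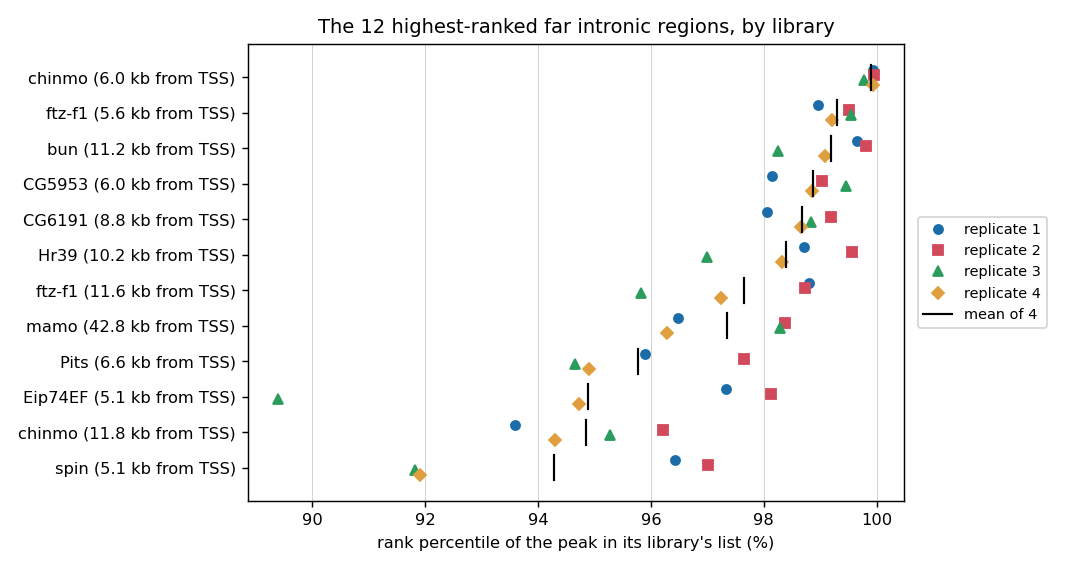
Rank percentile (percent of peaks in the library's own list with a signal value no higher) of the 12 highest-ranked far intronic regions called in all 4 libraries, at most 2 per gene; symbols are the 4 replicates and the bar is their mean. The chinmo region sits at 99.8 or above in every library, while Eip74EF spreads from 89.4 in replicate 3 to 98.1 in replicate 2.

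At the other end, the lowest regions called in all 4 libraries lay in Fur1, sick and brat. The Fur1 region, in the gene of a furin-type protease, had percentiles of 10.1, 54.8, 20.4 and 28.5. The sick region, in the gene of a regulator of actin and of immune signalling, had 34.4, 57.1, 20 and 21.0. The brat region, in the gene of a translational repressor of neural progenitors, had 38.3, 33.8, 64.8 and 16.1. In each of the 3 the libraries spread far wider than in the top chinmo region.

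The 348 regions fell in 193 host genes, counting the longest gene where several overlap. A single region was found in 126 of them and 2 regions in 31. The other 36 genes held 3 or more and together accounted for 160 regions (46.0%, interval 40.7% to 51.4%). Median gene length was 34700 bp for hosts and 17741.5 bp for all protein-coding genes with far intronic sequence. Regions in 1 gene share its chromatin and are not independent.

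The most regions lay in Eip75B and ftz-f1, both of the ecdysone response. Eip75B, which encodes an ecdysone-induced nuclear receptor, and ftz-f1 held 10 each. Eip74EF held 9, as did rdx, which is not of that group. Far intronic sequence came to 48673 bp in Eip75B and 25078 bp in ftz-f1, against a median of 4462.5 bp over all genes with any. The 10 regions of ftz-f1 spanned 37318 bp of a gene of 50703 bp, 7 of them called in all 4 libraries, with mean percentiles from 26.2 to 99.3. The 10 of Eip75B spanned 54642 bp, from 43595 to 98237 bp from the 5′ end. Only 1 was called in all 4 libraries, and the mean percentiles stayed between 17.3 and 46.4. Equal counts therefore went with unlike ranks. Eip74EF had 4 of 9 regions in all 4 libraries, with mean percentiles from 28.7 to 94.9. EcR, which encodes the ecdysone receptor, held 5 regions, none in all 4 libraries, with mean percentiles from 30.8 to 85.6. Taiman, a coactivator of that receptor, is encoded by tai, with 6 regions, and the corepressor Smr by the gene of that name, also with 6.

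The gene rdx encodes Roadkill, an adaptor for ubiquitin ligation that acts on the Hedgehog effector Ci. Its 9 regions spanned 44510 bp, 2 of them in all 4 libraries, with mean percentiles from 19.2 to 79.2. Raf, the kinase of the Ras pathway, held 5 regions over 16832 bp, 3 in all 4 libraries. The bun gene held 5 over 66336 bp, sbb 5 over 25669 bp, and simj, which encodes a subunit of the NuRD chromatin complex, 5 over 4458 bp. Another 10 genes held 4 regions, Glut4EF, InR, Mi-2, Mnt, Tis11, chinmo, hth, mam, nkd and shot, and 15 held 3. Per 10 kb of far intronic sequence in the gene, Mi-2, the ATPase of NuRD, had 4.56 regions, ftz-f1 3.99, Raf 3.63 and Eip75B 2.05. The value over all far intronic sequence was 0.115. These 4 genes were named for their many regions, so values above it follow from that choice. By the same measure CG8745, with 1 region in 871 bp of such sequence, had 11.5. Of the Mi-2 regions 0 were called in all 4 libraries and 1 in 3.

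**Figure D3:**
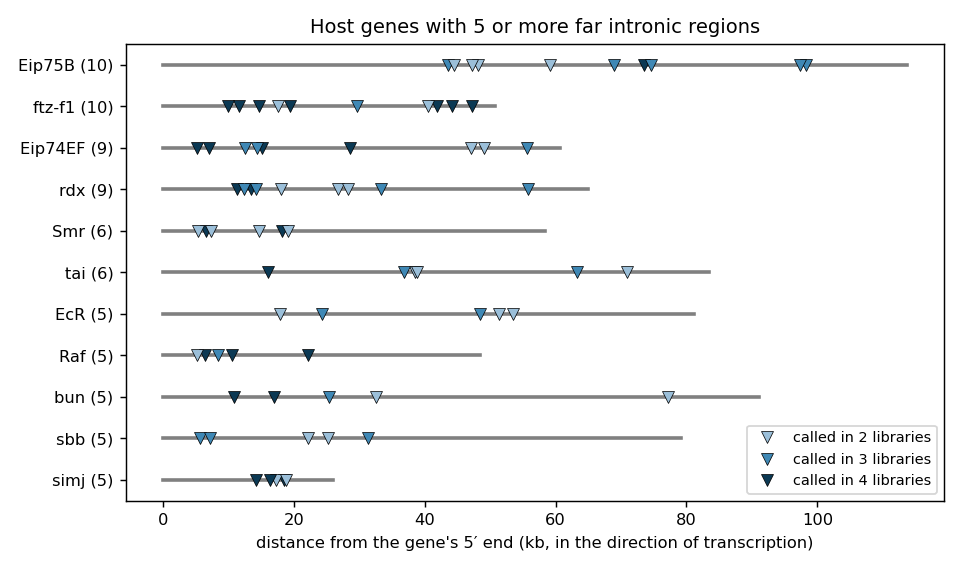
Positions of far intronic regions in the 11 host genes with 5 or more, as distance from the gene's 5′ end (kb) in the direction of transcription; grey lines are the genes, triangles the regions, and darker colour more libraries. The 7 regions of ftz-f1 called in 4 libraries lie at both ends of the gene, while the 10 of Eip75B begin 43.6 kb into it.

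The share of genes holding a far intronic region ran from 0% to 50% over the gene lists. Of the 2246 protein-coding genes with any far intronic sequence, 201 held 1 or more regions, or 8.95%, here counting every gene that overlaps a centre. Among the 747 genes with 10000 bp or more of such sequence 132 did, or 17.7%. The share rose with the amount of sequence, from 1.09% of genes with up to 2000 bp to 24.4% of those with over 50000 bp. Lists of genes were counted against these shares, with no test of enrichment.

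Of 19 genes of nuclear receptors and the ecdysone response with far intronic sequence, 8 (42.1%, interval 20.3% to 66.5%) held 41 regions between them, in EcR, Eip74EF, Eip75B, ftz-f1, Hr3, Hr38, Hr39 and Hr4. Of the 13 with 10000 bp or more, 8 did (61.5%). With regions called in 3 or more libraries the count was 7 of 19, when 5.79% of all genes did, and in all 4 libraries 4 of 19, when 3.21% did. BTB zinc finger genes held regions in 6 of 12 cases (50%, interval 21.1% to 78.9%), namely ab, chinmo, fru, lov, mamo and psq, and in 6 of the 10 with 10000 bp or more. In all 4 libraries only chinmo and mamo remained, and lov was called in 3 libraries at percentiles of 64.6, 67.3 and 25.3. Of the genes chosen for their place in the Chinmo temporal network or near it, chinmo held 4 regions and mamo 1, while br, Imp, Syp and Eip93F held none.

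Genes of the Wnt, Hedgehog and BMP pathways held regions in 12 of 32 cases (37.5%, interval 21.1% to 56.3%) and in 8 of the 16 with 10000 bp or more. They included receptors (fz, fz2, arr, ptc, tkv), inhibitors (Dad, nkd, Notum), a kinase (sgg) and a repressor (shn). The Dad region, in the gene of an inhibitory Smad, had percentiles of 89.8, 91.0, 73.2 and 88.7. The tkv region, in the gene of a BMP receptor, was called in 3 libraries at 66.8, 83.3 and 54.6. The sgg region, in the gene of the kinase that phosphorylates Armadillo, was called in 3 libraries at 51.6, 89.4 and 59.1. Neither tkv nor sgg was called in replicate 3. With regions in all 4 libraries the count for this list was 2 of 32 (6.25%), when 3.21% of all genes held one.

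Neuroblast and neuronal factors held regions in 6 of 23 genes (26.1%, interval 10.2% to 48.4%). The sbb region, in the gene of the nuclear factor Scribbler, was called in 3 libraries at 93.3, 84.1 and 65.7. The jing region, in the gene of a zinc finger factor of glia and trachea, gave 90.6, 79.5, 78.0 and 53.6. The chn region, in the gene of the proneural factor Charlatan, gave 78.7, 86.6 and 56.2 in 3 libraries. Muscle genes held regions in 6 of 28 cases (21.4%), among them Mef2, the muscle differentiation factor, at 30.5, 65.7, 61.9 and 33.3. Polycomb, trithorax and chromatin regulators held them in 5 of 25 (20%), with osa, a subunit of the Brahma complex, at 64.9, 46.9, 76.1 and 31.1. The Notch pathway had 2 of 10 (20%), N and mam, and 1 without replicate 2, when 6.28% of all genes held a region.

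The remaining lists lay nearer the share over all genes. Homeodomain and segmentation genes held regions in 6 of 46 (13.0%), of which the Antp region had percentiles of 86.1, 80.8, 95.1 and 94.9 and the Ubx region, called in 3 libraries, 31.8, 74.7 and 47.5. Receptor tyrosine kinase signalling had 4 of 27 (14.8%), RNA-binding and splicing regulators 4 of 27 (14.8%), cell adhesion and junction 8 of 66 (12.1%) and tracheal, midgut, fat body and blood genes 2 of 22 (9.09%). The JAK/STAT list had 1 of 7, chinmo, and axon guidance 3 of 38 (7.89%). In the last, the beat-Ib region gave 93.7, 92.1, 87.7 and 89.9 and the Dscam1 region 56.4, 95.8, 71.8 and 86.4. Cyclic nucleotide, calcium and G protein signalling had 1 of 34 (2.94%), Pka-C1. Without replicate 2 the counts were 3 for homeodomain and segmentation genes, 5 for adhesion, 1 for RNA-binding and 1 for tracheal and related genes, with 6.28% of all genes holding a region. The last was 1 also without replicate 1.

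Ion channels held no region in 41 genes (interval 0% to 8.60%), and 0 of the 21 with 10000 bp or more, although the median of far intronic sequence in that list was 12274 bp per gene, against 4462.5 bp over all genes with any. Glial genes held none in 9. No odorant or taste receptor gene and no cytosolic ribosomal protein gene had far intronic sequence, so those lists say nothing here.

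**Figure D4:**
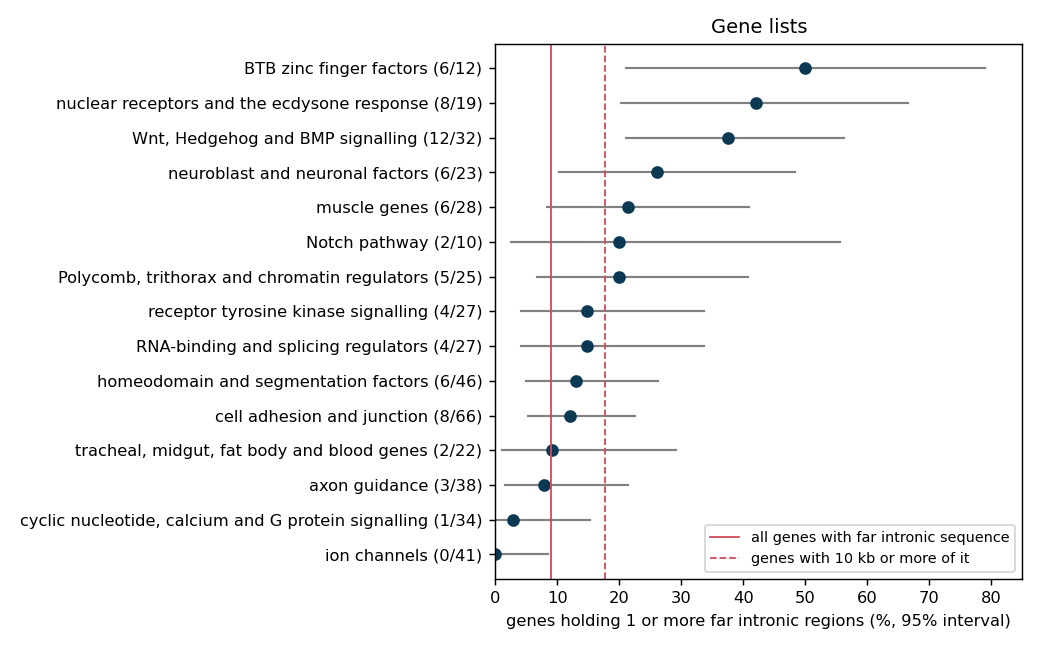
Percentage of the genes in each list described here (those with 10 or more genes that have far intronic sequence) that hold at least 1 far intronic region, with the 95% Clopper-Pearson interval; numbers in brackets are genes holding a region and genes counted. The red lines mark 8.95% for all such genes and 17.7% for those with 10 kb or more; BTB zinc finger, nuclear receptor and Wnt, Hedgehog and BMP genes lie to the right of both, ion channels at 0.

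The farthest regions from any protein-coding TSS lay in hth, which encodes a homeodomain cofactor of the Hox proteins, at 78273 and 69951 bp. The first was called in all 4 libraries at percentiles of 24.1, 56.2, 74.7 and 64.6, the second in 2 at 41.8 and 22.9. Then followed the mamo region at 42760 bp, a luna region at 38137 bp and a second Fur1 region at 35416 bp. Of these, only mamo ranked above 90 in any library.

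Some far intronic regions coincided with the start of a non-coding gene. A ftz-f1 region lay 20 bp from the TSS of lncRNA:CR45938 and had percentiles of 84.9, 97.8, 61.4 and 78.5. A region in Ptr, called in replicates 1 and 2 at 61.2 and 83.2, lay 24 bp from tRNA:Asn-GTT-1-8. A Tis11 region lay 78 bp from a further non-coding TSS, at 58.8, 71.2, 24.4 and 33.2. A Swim region, called in replicates 1 and 2 at 39.1 and 54.2, lay 91 bp from a snoRNA gene. When the TSS of all annotated genes counted, 7.85% of regions remained far intronic.

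Sequence composition differed between the centres of far intronic regions and windows 500 bp away. Median GC content in the window of 50 bp either way from the centre was 47.5%, the same as in promoter, near intronic and intergenic regions, against 36.1% in windows 500 bp to either side. The element GAGAG, bound by GAGA factor, occurred on either strand in 97 of 348 centre windows (27.9%, interval 23.2% to 32.9%). It occurred in 11.2% of flanking windows and in 11.5% of 151641 windows tiled over all far intronic sequence. Centres of the other classes held it in 24.4% of near intronic, 30.4% of intergenic, 26.4% of exonic and 25.4% of promoter regions. In single summits of replicates 1 to 4 the share was 27.2%, 26.2%, 29.4% and 27.3%, against 11.2%, 9.24%, 12.9% and 10.4% in their flanks. The difference was positive in 4 of 4 libraries, 16.6 ± 0.479 points (SD, n = 4; exact permutation p = 0.13, adjusted 0.281). In each library 62.2% to 83.8% of far intronic summits lay within 100 bp of a summit of another library. The 4 libraries therefore largely score the same reference sequence. Their agreement and small SD are not independent repeats. Promoter summits held GAGAG in 26.5%, 27.1%, 21.9% and 22.8% of cases, so that the far intronic share was higher in 3 of 4 libraries, by 2.96 ± 3.78 points (exact permutation p = 0.375, adjusted 0.562). That difference was 1.44 points without replicate 3 and 0.0675 points for summits over 8000 bp from a TSS.

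The CA repeat CACACA behaved alike in position. It occurred in 75 of 348 centres (21.6%, interval 17.3% to 26.2%), in 10.5% of flanks and in 9.68% of tiled windows. Centres of the other classes held it in 24.2% of near intronic, 21.6% of exonic, 19.6% of intergenic and 15.6% of promoter regions. In single summits the shares were 21.2%, 19.9%, 28.4% and 27.0%, against 10.3%, 8.55%, 10.2% and 7.42% in the flanks. The mean difference was 14.99 ± 4.55 points, positive in 4 of 4 libraries (exact permutation p = 0.13, adjusted 0.281), and replicates 3 and 4 were the higher pair. As for GAGAG, shared summits mean that these 4 values are not independent repeats. The repeat was found in 24 of 158 regions called in 2 libraries (15.2%), 20 of 97 in 3 libraries (20.6%) and 31 of 93 in all 4 (33.3%). GAGAG showed no such order over the number of libraries, at 25.3%, 34.0% and 25.8%. By rank, each element was more common in the stronger regions. GAGAG was in 31.0% of the 87 regions of highest mean percentile and in 21.8% of the 87 of lowest. For the CA repeat these shares were 28.7% and 17.2%. These differences were not tested, and the other classes were not split in this way. Either element was present in 148 regions (42.5%) and both in 24. The other 200 regions, the top chinmo region among them, held neither within 50 bp of the centre.

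The DREF element TATCGAT, known from the promoters of housekeeping and replication genes, was common at promoter centres and rare in every other class. It occurred in 0 of 348 far intronic centre windows, which allows a share of up to 0.862% by 3 counts of the total, or 1.05% by the Clopper-Pearson interval. The share was 1.26% in near intronic, 1.60% in intergenic and 0.8% in exonic regions, against 20.5% of 2371 promoter regions. Its share was 1.87% in the flanks of far intronic regions and 1.11% in tiled windows. That difference between classes was not tested across libraries. The element CAAGGT, recognised by Ftz-f1 and related receptors, was in 17 far intronic centres (4.89%, interval 2.87% to 7.71%), in 2.73% of flanks and in 2.32% of promoters. AACCGG, the Grainyhead element, was in 3.45% of centres and 1.44% of flanks, and the E-box CAGCTG in 5.46% and 3.74%.

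Some elements were rarer at the centre than beside it. The homeodomain core TAATTA was in 4.02% of centres and 10.8% of flanks, TGGGAA of Su(H) in 4.02% and 8.76%, and CTTTGA of TCF in 3.16% and 6.61%. In tiled windows the shares were 7.48%, 6.53% and 6.47% in that order, above the centres but below the flanks. The flanks also held less GC than the centres, and the part of base composition in these shares was not tested. The remaining elements showed smaller differences, in either direction. The Zelda element CAGGTAG was in 2 regions (0.575%, against 0.431% of flanks). TGANTCA of AP-1 was in 2.30% of centres and 2.59% of flanks, GATAAG of GATA factors in 4.89% and 6.61%, ACAATG of Sox factors in 6.90% and 5.60%, and the forkhead element TGTTTAC in 1.44% of both.

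**Figure D5:**
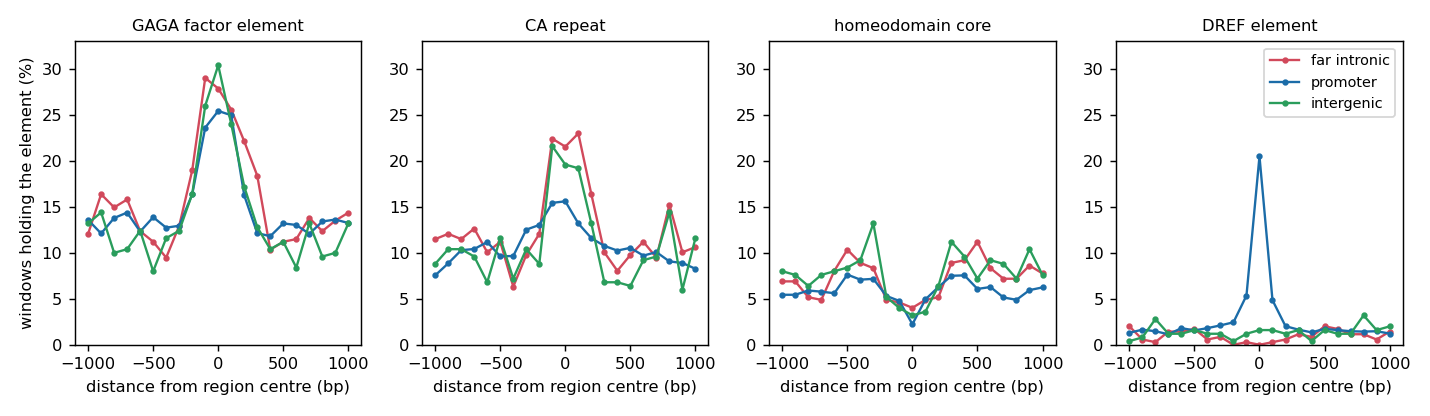
Percentage of windows (50 bp either way from their middle) that hold each element on either strand, by distance of the window from the region centre (bp), for far intronic, promoter and intergenic regions. In far intronic regions the GAGA factor element is at 27.9% at the centre and 29.0% at −100 bp. The CA repeat is at 21.6% at the centre and 23.0% at 100 bp, so neither is highest at the centre itself. The homeodomain core falls to 4.02% at the centre, and the DREF element, at 20.5% in promoters, is at 0.

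Every 6-mer, joined with its reverse complement (2080 in all), was also counted, in the same centres and flanks as the elements above. The largest excess of centre over flanks was that of AGAGAG, in 16.1% of centres and 4.17% of flanks. CACACA followed, and then GAGCGA, in 14.4% and 3.74%. GAGAGC was in 14.1% and 3.59%, AGCGAG in 13.5% and 3.16%, and GAGAGA in 14.4% and 4.17%. These overlap one another, and 5 of the 6 are GA-rich. All 6 were also found in between 9.60% and 19.6% of intergenic centres and between 11.2% and 15.6% of promoter centres. The largest deficit was that of TAAATA, in 8.62% of centres and 26.1% of flanks.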

How the data were processed

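Binding was measured in 4 libraries labelled biological replicates 1 to 4 of 1 group of whole embryos. For each library the authors deposited a thresholded and a ranked peak list on dm6, per the labels. Each peak carries a deposited signal value with no unit stated, a deposited score and, in column 9, another score whose meaning the deposited files do not state. The summit offset (a distance in bp) is the authors' too. Neither aligner nor peak caller is named; this is not given in the sources used here. Peaks were called per sample, and the libraries behind the whole-series lists are not stated. Chinmo is the entry under antibody in the labels, whereas the description names GFP. The age field holds no usable age, so 6 to 24 h comes from the source label. Control libraries were not analysed here. Read depth is unknown, because the lists hold no counts, and intervals cover counting error only.

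Analysis was limited to the 6 main arms, and 3 peaks of replicate 3 lay elsewhere. All peak ends lay within the arms of the RefSeq Release 6 genome. Gene models came from Ensembl BDGP6.54, release 115. Signal values ranked peaks within 1 list only. Python 3.11.15, numpy 2.4.6, scipy 1.17.1 and matplotlib 3.10.9 were used. The steps were tested on simulated data. The members and the 20 gene lists were chosen with earlier results of these data known. Of the list names 14 were matched through a synonym and 13 had no match. The counts of 1 list are not reported here. Comparisons between classes were made inside each library and tested across the 4 libraries by exact permutation (sign flips, two-sided), adjusted by Benjamini-Hochberg over 9 tests.

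Regions named with values are the 12 of highest mean percentile called in all 4 libraries (at most 2 per gene), genes with 3 or more regions as counts, up to 3 genes per list by their best region in 3 or more libraries, chinmo, mamo, br, Imp, Syp and Eip93F, up to 4 regions within 500 bp of a non-coding TSS, the 3 lowest in all 4 libraries, 2 to each side of the distance limit and the 5 farthest from a TSS. Alternatives changed the libraries required, the joining window, the distance limit, the annotation, the list length, the flanks and windows, and left out each replicate, forming regions and matches anew from the other 3. The planned ranking by the deposited p column could not be run, as it holds 1 constant value. Ranking by column 9, list counts under other settings, leaving out chinmo, and leaving out 1 library's difference with regions and matches kept were added after seeing the data.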

Additional observations from a re-analysis of the deposited data

Results flagged for a closer look

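Among 37 groups of 4 library values examined, 2 held a library that stood far from the other 3 relative to their range; chance gives about 1 such flag in 20 groups. The difference between far intronic and intergenic summits in the share matched in another library was −4.25 percentage points in replicate 2, where the other 3 libraries gave between 2.20 and 2.86 points. Replicate 2 has the longest list, 4415 peaks, and the part of list length in this value was not tested. The top chinmo region had a percentile of 99.8 in replicate 3, against 99.9 or more in the others, which is rank 6 in place of rank 3.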

How the results depend on the processing

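Of 105 values of the 9 tests under other settings, 7 reversed. The other 98 kept their direction or, for peak width, stayed at a difference of 0, which has no direction. Where all 4 differences of a test share a sign, leaving out 1 of them could not reverse the mean. The 98 are therefore no measure of how firm the directions are. No setting could bring a p under 0.05 with 4 libraries. Of the reversals, 6 concerned the matched share against intergenic summits, and the cause was not tested. That difference was −1.68 points with matching within 50 bp, −0.0705 for summits over 8000 bp from a TSS and −3.90 in the upper 50% of each list, and between −2.13 and 1.21 with 1 replicate removed also as a matching partner (0.137 to 2.51 with its difference alone left out). The seventh was the rank difference against near intronic regions, 1.59 points in the upper 50% of each list. The number of regions and their share follow the rule by construction. With 3 or more libraries required there were 190 regions (8.84% of all) in 124 host genes, 48.9% of them in all libraries, with a median percentile of 58.6. With all 4 required there were 93 (7.97%) in 69 genes, with a median percentile of 71.3 and a median TSS distance of 7369 bp. A limit of 2000 bp gave 555 regions (15.9%) in 313 genes at a median of 5215 bp, and 8000 bp gave 159 (4.55%) in 97 genes at 13143 bp. Counting the TSS of all genes gave 7.85%. The upper 50% of each list gave 152 regions (8.31%) in 104 genes, 32.2% of them in all libraries, a median percentile of 74.0, a median distance of 7773 bp and GAGAG in 34.2%. A window of 100 bp to each side raised the GAGAG share to 50.3%. The conservative list alone held 684 far intronic summits (11.7%) and the longest list 2187 (15.8%). Without 1 replicate there were between 218 (without replicate 2) and 311 regions, 8.82% to 10.4% of all, with 36.2% to 49.5% of them in all 3 remaining libraries. Joining windows of 50 or 200 bp, and protein-coding exons alone, moved no description beyond its spread. The values rest on lists of called peaks, so weak binding in a library with a short list goes unseen, and without counts or controls no region can be given an enrichment over input.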
